A study of Mus musculus with 3 samples.

Results

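Chemokines of the CXC family that draw neutrophils into tissue, together with their receptor, were followed in CD45+ immune cells of the mouse small-intestinal muscularis. The 5 genes were *Cxcl2*, *Cxcl3*, *Ppbp*, *Pf4* and *Cxcr2*, chosen by name and all present among the 14148 genes of the count tables. Intestinal manipulation, a surgical handling of the bowel, was used as the trigger of muscularis inflammation. CD45+ cells were sorted from the peeled muscularis externa of 12-week-old WT C57BL/6J mice that were naïve or had been manipulated 24 h or 72 h earlier, and were profiled by droplet-based single cell RNA sequencing with 3′ UMI counting. Each time point was 1 library pooled from 3 to 4 mice, so that a time point cannot be told apart from its library and no test between time points was possible. No mutant allele, transgene or drug under study was part of these 3 libraries. Per the methods, the manipulation was done under ketamine and xylazine after a midline laparotomy, and the comparison group is labelled naïve. Anesthesia and laparotomy thus cannot be told apart from the manipulation itself.

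CXC chemokines are small secreted proteins. Those with a Glu-Leu-Arg (ELR) motif ahead of their first cysteines, among them the products of *Cxcl2*, *Cxcl3* and *Ppbp*, act on CXCR2, a G protein-coupled receptor through which neutrophils leave the blood and move into inflamed tissue. *Cxcl2* and *Cxcl3* are textbook targets of NF-κB downstream of Toll-like and IL-1 receptors, whereas *Ppbp* and *Pf4* are best known as genes of platelet α-granules. *Pf4* encodes a CXC chemokine without the ELR motif that is not a classical CXCR2 ligand, so the heading of neutrophil attraction holds for 3 of the 4 ligand genes only.

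The 4 ligand genes lie on the same strand of a stretch of 137421 bases of chromosome 5 (GRCm38, GENCODE annotation), which holds 6 protein-coding genes, the other two being *Cxcl15* and *Cxcl1*. In order along the + strand these were *Ppbp* (chr5:90768518-90770063, 3 exons), *Pf4* (chr5:90772435-90773383, 3 exons), *Cxcl3* (chr5:90786103-90789600, 4 exons) and *Cxcl2* (chr5:90903871-90905938, 4 exons). *Cxcr2* lies apart on chromosome 1 (chr1:74153989-74161246, 3 exons, + strand). None of the 5 overlapped another annotated gene. Within the last 500 bases of the transcripts, where 3′ reads fall, the longest run shared by any pair of the CXC genes compared was 14 bases (*Cxcl1* and *Cxcl2*), and *Cxcl2* and *Cxcl3* shared 9. To show how the neighbouring promoters differ, the 120 bases from 150 to 31 bases before the RefSeq start are printed here for the 4 ligand genes (RefSeq, GRCm38.p6, + strand, 5′ to 3′), with matches to the NF-κB (κB) motif in capitals.
Cxcl2, chr5:90903749-90903868: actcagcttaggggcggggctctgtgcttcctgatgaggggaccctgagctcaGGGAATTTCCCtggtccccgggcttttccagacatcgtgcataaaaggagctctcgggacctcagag
Cxcl3, chr5:90785951-90786070: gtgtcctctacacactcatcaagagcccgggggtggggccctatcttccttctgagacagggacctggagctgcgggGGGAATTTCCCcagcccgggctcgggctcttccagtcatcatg
Ppbp, chr5:90768368-90768487: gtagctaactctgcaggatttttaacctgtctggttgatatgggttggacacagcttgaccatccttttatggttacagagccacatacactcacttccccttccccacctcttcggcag
Pf4, chr5:90772285-90772404: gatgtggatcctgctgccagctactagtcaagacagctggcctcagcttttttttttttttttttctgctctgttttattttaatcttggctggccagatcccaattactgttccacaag

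*Cxcl2* and *Cxcl3* each carried 1 κB stretch, made of overlapping matches that began 97 and 96 bases before the start in *Cxcl2* and 73 and 72 in *Cxcl3*. This 11-base stretch was also the longest run that both printed windows shared. Over the 250 bases before the start, read on both strands, the motif was found in 3.9% of 32851 RefSeq mouse promoters and was not found in *Ppbp*, *Pf4* or *Cxcr2*. The TATA letters TATAAA, read on 1 strand, began 30 bases before the start of *Cxcl3* and 30 and 8 before that of *Ppbp* (7.59% of promoters), and the AP-1 letters TGANTCA 204 bases before *Ppbp* (6.75%). The PU.1 letters GAGGAA, on either strand, were found 8 bases before *Pf4* and 81 before *Cxcr2* (23.3%). A match describes letters and is not a measured binding site.

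The libraries held 652 naïve, 2211 24 h and 1239 72 h cells, with a median of 2134.5, 4669 and 3295 UMIs per cell. Clustering left the 5 genes and the pathway lists below out of the variable genes, and clusters were named from marker lists that hold none of the 5 genes. Monocyte/Mφ-like cells numbered 139, 1541 and 574 in the naïve, 24 h and 72 h libraries, neutrophil-like cells 27, 437 and 313, dendritic cell (DC)-like cells 21, 124 and 137, T cell-like cells 188, 71 and 136, and B cell-like cells 277, 38 and 79. Neutrophil-like cells held few UMIs, with medians of 821, 869 and 1046 per cell against 3315, 5922 and 5321 in monocyte/Mφ-like cells. Each pair of libraries shared 1 cell barcode, and the 16 doublets called by Scrublet were kept. Levels are CPM, for which the UMIs that a group of cells holds of a gene are added up and scaled to an equal total for every group, and the levels of a pair of genes are set side by side only to compare their ratio between cell classes. Intervals in parentheses are 95% intervals of the counting error alone and leave out the spread between mice. The *Cd79a*-led and *Gm42418*-led subclusters of monocyte/Mφ-like cells, led by B cell genes and marked by few UMIs, have no marker-based name, nor have the *Ltc4s*-led and *Mmp12*-led ones, and the immunoglobulin genes *Igha* and *Igkc* were among the leading genes of the *Fabp5*+ and *Cx3cr1*+ subclusters.

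**Figure D1:**
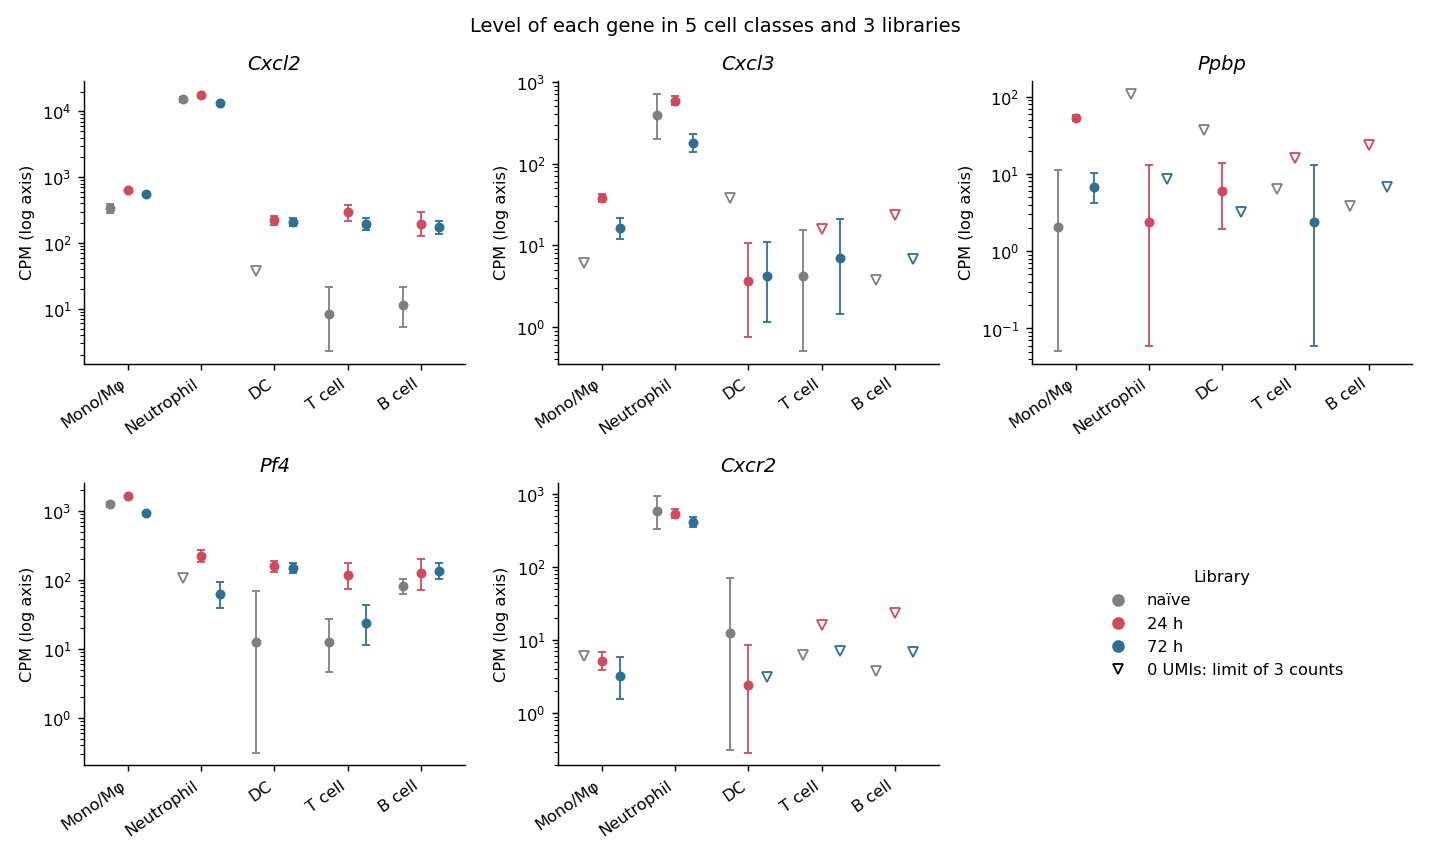
Level of each gene (CPM, log axis) in the 5 cell classes, with 1 point per library (colour) and exact 95% Poisson intervals, and an open triangle at the limit of 3 counts where no UMI was found. *Cxcl2* and *Cxcr2* were highest in neutrophil-like cells and *Pf4* in monocyte/Mφ-like cells in all 3 libraries, and *Ppbp* was highest in monocyte/Mφ-like cells at 24 h.

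*Cxcl2* (MIP-2, an ELR+ ligand of CXCR2) had its highest level in neutrophil-like cells, the cells that its product attracts. Its level there was 15269 CPM (13847 to 16798) in naïve muscularis, 18072 (17669 to 18481) 24 h and 13228 (12851 to 13613) 72 h after manipulation, and 81.5%, 91.8% and 91.4% of these cells held a UMI of it. Neutrophil-like cells gave 70.1%, 56.4% and 69.3% of all *Cxcl2* UMIs of a library while being 4.14%, 19.8% and 25.3% of its cells. These shares include a *Ptgs2*-led cluster that carried the eosinophil gene *Siglecf*, and whether it holds eosinophils could not be settled from the markers measured. It gave 27.2%, 1.73% and 45.5% of the library's *Cxcl2* UMIs, and the other neutrophil-like cells gave 42.9%, 54.7% and 23.8% from 1.84%, 18.4% and 8.56% of the cells. By level the class ranked first in naïve as in inflamed muscularis, and without that cluster it also did at 24 h and 72 h. The naïve value rests on 27 cells and 422 UMIs. Without the cluster 12 naïve cells and 258 UMIs were left, under the 20 cells set for a comparison. Monocyte/Mφ-like cells came next, at 339 CPM (289 to 394), 629.7 (613 to 646) and 553 (527 to 579.8), and gave 27.7%, 41.6% and 25.4% of the UMIs. The level in neutrophil-like cells exceeded that in monocyte/Mφ-like cells 45.1-fold (37.6 to 54.2) without manipulation, 28.7-fold (27.7 to 29.7) at 24 h and 23.9-fold (22.6 to 25.3) at 72 h. Without the *Ptgs2*-led cluster the excess was 29.4-fold (28.4 to 30.4) at 24 h and 20.9-fold (19.5 to 22.4) at 72 h, and at 72 h these neutrophil-like cells and monocyte/Mφ-like cells gave similar shares of the UMIs.

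In monocyte/Mφ-like cells the *Cxcl2* level was 1.86-fold (1.59 to 2.18) that of the naïve library at 24 h, and the ratio of 72 h to 24 h was 0.878 (0.831 to 0.927). That last ratio was 1.01 when each cell was thinned to 1000 UMIs. The naïve level rests on few cells, since without the 5 cells that held most *Cxcl2* in each library 69 of 167 naïve UMIs were left and the ratio of 24 h to naïve was 4.01. *Cxcl2* UMIs also appeared in the other classes. T cell-like cells held 8.42, 292 and 196 CPM and B cell-like cells 11.4, 197 and 174 CPM. DC-like cells held 0 UMIs in the naïve library, where 3 counts would be 37.4 CPM, and 220.0 and 209.8 CPM later. The lymphocyte-like levels were thus also higher after manipulation, and the monocyte/Mφ-like level was 2.16-fold (1.66 to 2.87) that of T cell-like cells at 24 h and 2.82-fold (2.27 to 3.56) at 72 h. After the T and B cell-like level of each library was taken off, the ratio of 24 h to naïve in monocyte/Mφ-like cells was 1.14 and that of 72 h to 24 h was 0.979.

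Cells with a *Cxcl2* UMI made up 23.0%, 71.8% and 68.5% of monocyte/Mφ-like cells and 2.13%, 38.0% and 39.0% of T cell-like cells, whose median depths were 2336.5, 2400 and 2710 UMIs. At 1000 UMIs per cell the shares were 11.9%, 31.7% and 33.9% against 1.69%, 11.4% and 15.4%. The share in monocyte/Mφ-like cells thus lay above that in T cell-like cells in every library at equal depth. *S100a9*, an alarmin gene of neutrophils, served as a reference for RNA released from them. At 24 h there were 0.602 (0.585 to 0.619) *Cxcl2* UMIs per *S100a9* UMI in neutrophil-like cells, 2.07 (1.98 to 2.17) in monocyte/Mφ-like cells, 1.36 (1.08 to 1.71) in DC-like cells and 1.57 (1.01 to 2.47) in T cell-like cells. At 72 h the ratios were 0.549 (0.530 to 0.569), 1.58 (1.46 to 1.70), 0.912 (0.749 to 1.11) and 0.892 (0.656 to 1.21) in the same order. In the naïve library the ratio of monocyte/Mφ-like cells was 55.7 (18.7 to 273), on 3 *S100a9* UMIs. With this reference the ratio in monocyte/Mφ-like cells was above that in neutrophil-like cells in all 3 libraries. With *Il1b* as the reference it was not, with 1.49 (1.43 to 1.55) *Cxcl2* UMIs per *Il1b* UMI in monocyte/Mφ-like and 1.57 (1.51 to 1.63) in neutrophil-like cells at 24 h, and 0.759 (0.712 to 0.808) and 0.935 (0.898 to 0.973) at 72 h. *Il1b*, the gene of IL-1β, is known to be expressed by monocytes and macrophages as well as neutrophils. The summed level of the 10 neutrophil markers moved with the libraries too, from 369 to 1849.9 and 1358 CPM in monocyte/Mφ-like cells and from 73.6 to 599 and 632 CPM in T cell-like cells. The part of released RNA in the *Cxcl2* level of each class was not tested further.

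**Figure D2:**
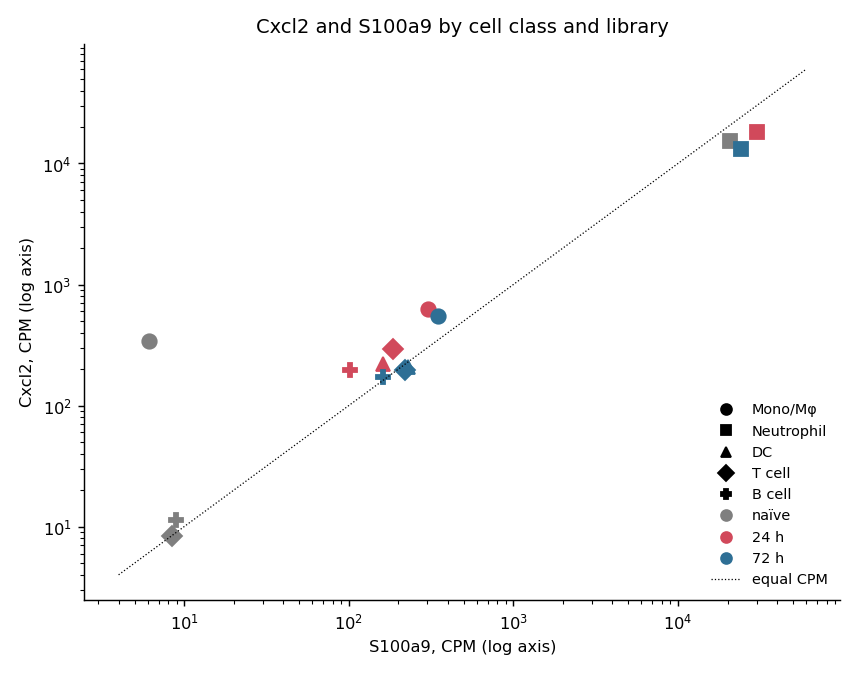
*Cxcl2* against *S100a9* level (CPM, both log axes) with 1 point per cell class (shape) and library (colour) and a dotted line at equal CPM as a guide for comparing the ratio of both genes between classes, for classes with at least 1 UMI of both genes. Neutrophil-like points lie below the line at the upper right, monocyte/Mφ-like points above it, and lymphocyte-like points near it at the lower left.

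Neutrophil-like cells fell into 3 clusters, named here by a leading gene, and these differed in *Cxcl2*. The *Retnlg*-led cluster held most of the class at 24 h (360 of 437 cells) and the *Ptgs2*-led cluster most of it at 72 h (207 of 313), while an *Acod1*-led cluster held 46 cells at 24 h and 16 at 72 h. *Siglecf*, a gene of eosinophils that neutrophils in tissue can also express, was among the leading genes of the *Ptgs2*-led cluster, in which the other eosinophil markers measured, *Prg2* and *Ccr3*, had 0 UMIs at 24 h and 72 h. Of the 10 neutrophil markers, 8 reached the limits set for a name in this cluster, against 1 of the 3 eosinophil markers measured. *S100a9* stood at 13136 CPM at 24 h and 14882 CPM at 72 h. *Ly6g* was at 0 UMIs in both libraries and *Retnlg* at 0 at 24 h. The study itself named an eosinophil cluster with *Siglecf* among its markers and listed eosinophils among the main populations at 72 h. At 24 h the *Cxcl2* level was 49967 CPM (48306 to 51671) in the *Acod1*-led cluster, 12043 (11673 to 12422) in the *Retnlg*-led and 10324 (9046 to 11732) in the *Ptgs2*-led cluster. The *Acod1*-led cells thus held 4.15 (3.96 to 4.34) times the level of *Retnlg*-led cells, with up to 334 *Cxcl2* UMIs in a single cell. At 72 h the level was 14321 CPM (13818 to 14837) in the *Ptgs2*-led cluster and 10557 (9968 to 11171) in the *Retnlg*-led cluster. From 24 h to 72 h *Cxcl2* was higher in *Ptgs2*-led cells, with a ratio of 1.39 (1.21 to 1.59), and lower in *Retnlg*-led cells, with a ratio of 0.877 (0.821 to 0.935). These ratios were not computed for clusters drawn under other settings. In the class as a whole the ratio was 0.732 (0.706 to 0.759).

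Among monocyte/Mφ-like subclusters at 24 h, *Cxcl2* was highest in a small *Mmp12*-led group of 38 cells, at 3007 CPM (2765 to 3266). *Fabp5*+ Mφ-like cells held 722 (693 to 753), *Ltc4s*-led cells 713 (669.8 to 758), *Ccr2*+ intermediate cells 450.5 (414 to 489.6) and *Ly6c*+ monocyte-like cells 434 (407 to 462) CPM. *Gm42418*-led cells were at 416 (363 to 474) and *Cd79a*-led cells at 225 (154 to 317) CPM. The *Mmp12*-led level was 4.16 (3.79 to 4.57) times that of *Fabp5*+ cells, whereas *Fabp5*+ and *Ltc4s*-led cells could not be told apart, with a ratio of 1.01 (0.941 to 1.09). The 10 neutrophil markers summed to 2799.9 CPM in the *Mmp12*-led cells, above their sum in monocyte/Mφ-like cells as a whole at 24 h. *Ly6g* and *Mmp9* were at 0, so the sum came from other markers of the list. The part of neutrophil RNA or doublets in these cells was not tested. At 72 h *Timp2*+ cells held 684 CPM (619.6 to 752), *Cd206*+ cells 499.7 (462 to 539), *Ccr2*+ intermediate cells 445 (391 to 504) and *Cx3cr1*+ cells 252 (166 to 367). *Ly6c*+ monocyte-like cells, with 29 cells left at 72 h, held 69.2 CPM (35.8 to 121), which was below the T cell-like level of that library, and their ratio of 72 h to 24 h was 0.160 (0.0822 to 0.280). In the naïve library *Cx3cr1*+ cells held 118 CPM (77.1 to 173) and *Cd206*+ cells 392 (273 to 545).

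*Cxcl3*, the neighbouring ELR+ ligand with the same κB letters in its promoter window, was found in far fewer cells. In neutrophil-like cells its level was 585 CPM (515 to 663) at 24 h and 179 (137 to 229) at 72 h, a ratio of 0.305 (0.228 to 0.404), and the naïve level of 398 CPM came from 11 UMIs of a single cell. In monocyte/Mφ-like cells no *Cxcl3* UMI was found in the naïve library, where 3 counts would be 6.09 CPM, against 37.6 CPM (33.7 to 41.8) at 24 h and 16.2 (12.0 to 21.3) at 72 h. The 24 h level was thus 6.17 times (2.09 to 30.1) the value that 3 naïve counts would give. The ratio of 72 h to 24 h was 0.431 (0.314 to 0.581), and it was 0.0846 without the 5 cells of each library with most *Cxcl3*. *Cxcl3* was in 115 of 1541 monocyte/Mφ-like cells at 24 h (7.46%, 2.62% at 1000 UMIs) and in 11 of 574 at 72 h (1.92%, 1.08% at 1000 UMIs). T and B cell-like cells of the 24 h library held no UMI of it in 71 and 38 cells, where 3 cells would be 4.23% and 7.89%. At median depths of 2400 and 1707 UMIs, against 5922 in monocyte/Mφ-like cells, a difference in shares from monocyte/Mφ-like cells was not detectable. By level, the upper limit for these 109 cells together was 11.7 CPM, below the monocyte/Mφ-like level of 37.6 CPM.

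*Cxcl3* shared its highest groups with *Cxcl2*. At 24 h it was at 2003 CPM (1681 to 2368) in *Acod1*-led and 334 (275 to 402) in *Retnlg*-led neutrophil-like cells, a ratio of 6.00 (4.64 to 7.78). No UMI was found in the 31 *Ptgs2*-led cells of that library, where 3 counts would be 132 CPM, while the cluster held 159 CPM (110.2 to 222) at 72 h. Among monocyte/Mφ-like subclusters at 24 h the *Mmp12*-led cells were highest again, at 655 CPM (544 to 781), followed by *Fabp5*+ cells at 41.6 (34.8 to 49.4), *Ltc4s*-led cells at 27.9 (19.9 to 38.0), *Ccr2*+ intermediate cells at 10.6 (5.63 to 18.1) and *Ly6c*+ monocyte-like cells at 7.02 (4.01 to 11.4). The *Mmp12*-led level was 15.7 (12.2 to 20.3) times the *Fabp5*+ level. At 72 h, 42 of the 50 monocyte/Mφ-like *Cxcl3* UMIs came from the 19 *Mmp12*-led cells. Over all monocyte/Mφ-like cells the pair was also found in the same cells. Of those with *Cxcl3* at 24 h, 67.5% held *Cxcl2* at 1000 UMIs per cell, against 30.7% of those without it. These shares also hold the difference in level between subclusters. Within the *Mmp12*-led cells they were 90.9% of 11 and 55.6% of 27 cells. Within *Fabp5*+ cells they were 50% (23.0 to 77.0) of 14 and 32.8% (28.3 to 37.5) of 424 cells and could not be told apart.

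**Figure D3:**
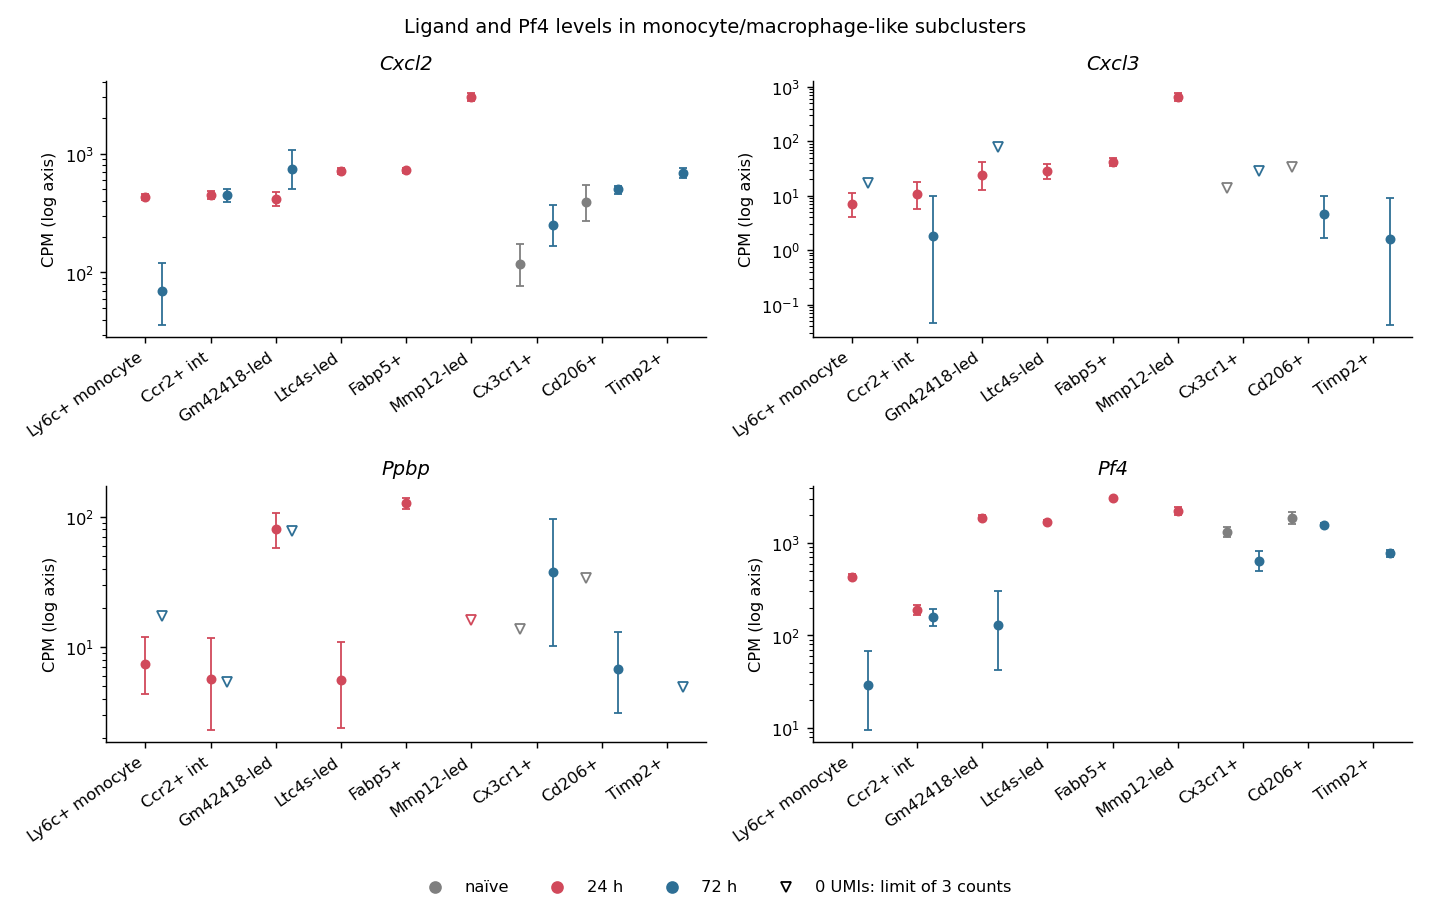
Levels of *Cxcl2*, *Cxcl3*, *Ppbp* and *Pf4* (CPM, log axis) in the monocyte/Mφ-like subclusters with at least 20 cells in a library, with 1 point per library (colour), exact 95% Poisson intervals and an open triangle at the limit of 3 counts where no UMI was found. *Cxcl2* and *Cxcl3* peaked in *Mmp12*-led cells, and *Ppbp* and *Pf4* in *Fabp5*+ cells, at 24 h.

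*Ppbp*, whose product is trimmed to the CXCR2 ligand NAP-2 (CXCL7), was found mainly in 1 macrophage state of the 24 h library. All cells together held 1 *Ppbp* UMI when naïve, 478 at 24 h and 22 at 72 h, and 472 of the 24 h UMIs were in monocyte/Mφ-like cells. The level there was 2.03 CPM on 1 UMI, then 52.6 CPM (48.0 to 57.6) and then 6.80 (4.21 to 10.4). The ratio of 24 h to naïve was 25.9 (4.63 to 1027), its wide interval coming from the single naïve UMI, and it was 6.15 with cells thinned to 1000 UMIs and at least 4.84 without the 5 cells with most *Ppbp* in each library. The ratio of 72 h to 24 h was 0.129 (0.0792 to 0.200). Neutrophil-like cells held 0, 1 and 0 UMIs of it. *Fabp5*+ Mφ-like cells of the 24 h library gave 396 UMIs, 82.8% of that library's *Ppbp* from 19.8% of its cells, at 127 CPM (115 to 140.0). The bounds of this subcluster moved with the processing. At resolution 1.2 an unnamed subcluster of 225 cells was led by *Ppbp*, with *Fabp5* and *Pf4* among its leading genes. With cells under 500 genes or over 5% mitochondrial UMIs dropped, such a subcluster held 204 cells. *Ppbp* and *Pf4* levels by subcluster were not computed under these settings. *Ly6c*+ monocyte-like, *Ltc4s*-led and *Ccr2*+ intermediate cells held 7.45, 5.58 and 5.69 CPM, and the *Mmp12*-led cells, highest for *Cxcl2* and *Cxcl3*, held no UMI. The *Fabp5*+ level was 17.0 (10.5 to 29.5) times that of *Ly6c*+ monocyte-like and 22.7 (11.4 to 53.0) times that of *Ltc4s*-led cells. *Gm42418*-led cells, a subcluster with a median of 2059.5 UMIs over the libraries and no marker-based name, held 79.9 (57.8 to 108) CPM on 43 UMIs.

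Within *Fabp5*+ cells *Ppbp* was held by a minority. It was in 61 of 438 cells (13.9%, 4.34% at 1000 UMIs), reached 75 UMIs in a cell, and 20 cells with 5 or more UMIs held 84.1% of the *Fabp5*+ UMIs. Median totals were 6793 UMIs in the 377 cells without *Ppbp*, 7858 in the 41 cells with 1 to 4 and 7150.0 in the 20 cells with 5 or more. *Pf4* was higher in each of these groups than in the one before, going from 2376 (2317 to 2435) to 5222 (4976 to 5476) and 10002 (9509 to 10514) CPM. *Cxcl3* was at 28.8 (22.7 to 36.0), 85.9 (57.1 to 124) and 169 (110.3 to 247) CPM, higher in the groups with *Ppbp*. *Cxcl2* was at 711 (679 to 744), 709 (620.2 to 806) and 948 (801 to 1115) CPM and *Apoe*, a lipoprotein gene of macrophages, at 4704 (4621 to 4787), 5344 (5096 to 5601) and 5929.7 (5551 to 6327) CPM. Among the 54 cells ranked highest by doublet score, the 3 groups held 7, 1 and 1 cells. As *Ppbp* and *Pf4* are known from platelets, platelet genes were looked for, of which 3 of the 10 listed were measured (*Itga2b*, *Treml1* and *Clec1b*). A UMI of any of them was in 2 of 116 cells with *Ppbp* (1.72%) and in 32 of 3986 cells without it (0.803%). *Itga2b* and *Treml1* had 0 UMIs in all *Fabp5*+ cells of the 24 h library, and *Clec1b* had 2. At 72 h the 21 monocyte/Mφ-like UMIs were spread, with 9 in *Cd206*+, 8 in *Mmp12*-led and 4 in *Cx3cr1*+ cells.

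**Figure D4:**
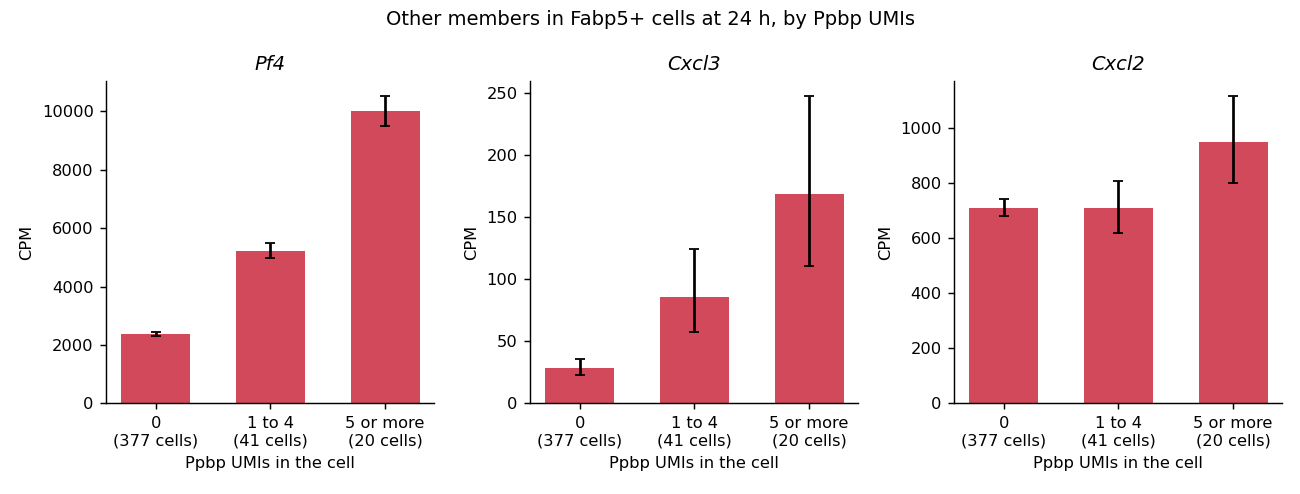
Levels (CPM, linear axes from 0) of other genes in *Fabp5*+ Mφ-like cells of the 24 h library, by the number of *Ppbp* UMIs in the cell (377, 41 and 20 cells), with exact 95% Poisson intervals. *Pf4* stood at 2376, 5222 and 10002 CPM from the left to the right group.

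*Pf4* (platelet factor 4) was a gene of monocyte/Mφ-like cells in all 3 libraries. These cells gave 89.7%, 98.2% and 92.7% of its UMIs, and its level there was 1258 CPM (1161 to 1361) in naïve muscularis, 1652 (1626 to 1679) 24 h and 948 (914 to 983) 72 h after manipulation. The level was 1.31-fold (1.21 to 1.43) higher at 24 h than in the naïve library and stood at 0.574 (0.551 to 0.597) times its 24 h value at 72 h. The cells behind these values differed. In the naïve library *Cd206*+ cells held 1892 CPM (1618 to 2199.9) and *Cx3cr1*+ cells 1321 (1174 to 1482). At 24 h 63.1% of *Pf4* UMIs came from *Fabp5*+ cells, at 3049 CPM (2988 to 3111), and at 72 h 66.2% came from *Cd206*+ cells, at 1589 CPM (1521 to 1658). The state with the highest level and the largest part of the UMIs at 24 h was thus another than at 72 h. *Fabp5*+ cells numbered 1, 438 and 4 and *Cd206*+ cells 25, 4 and 248 in the naïve, 24 h and 72 h libraries. Neither state could therefore be compared between 24 h and 72 h. The 4 *Cd206*+ cells at 24 h held 51 *Pf4* UMIs, and the 4 *Fabp5*+ cells at 72 h held 39. At 24 h *Ltc4s*-led cells held 1705, *Ly6c*+ monocyte-like cells 432 and *Ccr2*+ intermediate cells 190.3 CPM, and the *Fabp5*+ level was 7.07 (6.62 to 7.55) times that of *Ly6c*+ monocyte-like cells. The *Mmp12*-led value of 2219.7 CPM rests on 1 cell with 49.2% of its UMIs. At 72 h *Timp2*+ cells held 778, *Cx3cr1*+ cells 644, *Ccr2*+ intermediate cells 157 and *Ly6c*+ monocyte-like cells 28.8 CPM, and the *Cd206*+ level was 2.04 (1.85 to 2.26) times the *Timp2*+ level.

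For the states present in both the naïve and the 72 h library, *Pf4* was lower at 72 h, with a ratio of 0.840 (0.718 to 0.988) in *Cd206*+ and 0.488 (0.369 to 0.636) in *Cx3cr1*+ cells, the latter on 20 cells at 72 h. Of monocyte/Mφ-like cells 68.3%, 71.4% and 67.1% held a *Pf4* UMI, or 47.8%, 39.9% and 39.6% at 1000 UMIs, against 1.13%, 8.57% and 2.94% of T cell-like cells. Neutrophil-like cells held 0 UMIs in the naïve library, then 224 and 62.4 CPM. At 24 h there were 0.241 (0.191 to 0.302) *Pf4* UMIs per *Apoe* UMI in these cells, 0.229 (0.137 to 0.367) in T cell-like and 0.356 (0.349 to 0.362) in monocyte/Mφ-like cells, but at 72 h there were 0.0395 (0.0380 to 0.0410) in monocyte/Mφ-like, 0.0430 (0.0360 to 0.0509) in DC-like and 0.0530 (0.0400 to 0.0688) in B cell-like cells. Per UMI of *C1qa*, a complement gene of macrophages, there were 1.28 (1.25 to 1.31), 1.34 (0.974 to 1.85) and 1.69 (0.816 to 3.66) in monocyte/Mφ-like, neutrophil-like and T cell-like cells at 24 h, so that no order between the classes held over both references. The part of released RNA in these low *Pf4* levels was not tested further. *Pf4* and *Ppbp* shared cells as well as a locus. At 24 h, with 1000 UMIs per cell, 84.8% of monocyte/Mφ-like cells with *Ppbp* held *Pf4*, against 38.9% of those without.

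*Cxcr2*, the receptor of the ELR+ ligands, was a gene of neutrophil-like cells. Its level there was 579 CPM (331 to 940.2) in naïve muscularis, 533 (466 to 608) 24 h and 411 (347 to 484) 72 h after manipulation, and 33.3%, 34.8% and 29.4% of the cells held a UMI. These cells gave 94.1%, 82.2% and 93.5% of all *Cxcr2* UMIs. Monocyte/Mφ-like cells held no UMI in the naïve library, where 3 counts would be 6.09 CPM, and 5.24 CPM (3.85 to 6.97) and 3.24 (1.55 to 5.95) later. The neutrophil-like level was 102-fold (74.1 to 143) higher at 24 h and 127-fold (67.1 to 270.5) higher at 72 h. T and B cell-like cells held no *Cxcr2* UMI in any library. The class with the highest *Cxcr2* level was thus also the one with the highest *Cxcl2* and *Cxcl3* levels at 24 h and 72 h, but not with the highest *Ppbp* level. Of neutrophil-like cells with *Cxcr2* at 24 h, 90.8% also held *Cxcl2*, against 92.3% of those without it.

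The neutrophil-like clusters differed in *Cxcr2* in another order than in *Cxcl2*. At 24 h *Retnlg*-led cells held 616 CPM (535 to 707), *Ptgs2*-led cells 703 (402 to 1142) and *Acod1*-led cells, which had the highest *Cxcl2*, 73.1 (23.7 to 171) on 5 UMIs. The *Acod1*-led level was 0.119 (0.0381 to 0.281) times the *Retnlg*-led level, while *Retnlg*-led and *Ptgs2*-led cells could not be told apart, with a ratio of 0.877 (0.527 to 1.56). At 72 h *Retnlg*-led cells held 861 CPM (699 to 1049.8) and *Ptgs2*-led cells 215 (158 to 287), a ratio of 4.0 (2.79 to 5.81). In the class as a whole the ratio of 72 h to 24 h was 0.771 (0.622 to 0.954), yet it was 1.40 (1.09 to 1.79) in *Retnlg*-led and 0.306 (0.170 to 0.579) in *Ptgs2*-led cells. Without the *Ptgs2*-led cluster the class ratio was 1.36, and with every cell thinned to 1000 UMIs, which leaves out shallower cells, it was 1.03. The class value thus depended on which clusters filled each library. The cluster bounds also moved with the processing. At 24 h the *Retnlg*-led and *Ptgs2*-led clusters held 360 and 31 cells. With cells under 500 genes or over 5% mitochondrial UMIs dropped, they held 78 and 85. At resolution 1.2 a further 51 cells, all from 24 h, formed an unnamed cluster. The ratios by cluster were not computed under these settings. In *Retnlg*-led cells the share with a *Cxcr2* UMI was 37.5% at 24 h and 62.2% at 72 h, or 37.3% and 63.3% at 1000 UMIs.

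**Figure D5:**
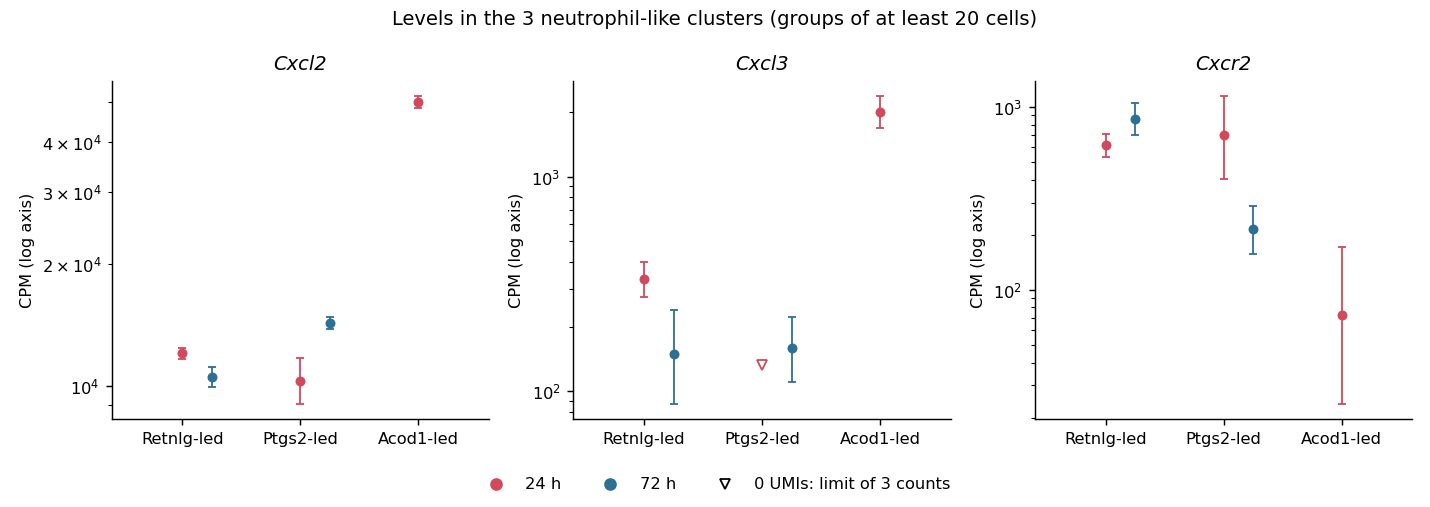
Levels of *Cxcl2*, *Cxcl3* and *Cxcr2* (CPM, log axis) in the 3 neutrophil-like clusters at 24 h and 72 h, for groups of at least 20 cells, with exact 95% Poisson intervals and an open triangle at the limit of 3 counts where no UMI was found. At 24 h *Acod1*-led cells were highest for *Cxcl2* and *Cxcl3* and lowest for *Cxcr2*.

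The genes were also set against the background of all genes, calling a gene higher or lower when its level differed at least 2-fold with 10 CPM added and its mean was at least 25 CPM. With 1 library per time point, such a call is a size and not a test. In monocyte/Mφ-like cells, 6.40% of 4222 genes were higher and 5.26% lower at 24 h than in the naïve library, and of the 5 genes 3 reached the minimum, of which *Ppbp* was higher and none lower. From 24 h to 72 h 2.21% of 4159 genes were higher and 2.55% lower, and of the 4 of the 5 genes that reached the minimum *Ppbp* was lower and none higher. *Ppbp* reached the minimum of 25 CPM in both comparisons only through its 24 h level. Both of its calls were thus set by that filter and add nothing to its ratios. In neutrophil-like cells 11.2% of 3811 genes were higher and 5.48% lower at 72 h than at 24 h. Of the 4 of the 5 genes that reached the minimum there, *Cxcl3* and *Pf4* were lower and none was higher. The median log2 ratio of all these genes was 0.12, -0.10 and 0.23 in the 3 comparisons.

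Lists of related genes were counted by the same rule, and most are too short for a share to be read against those of all genes. Of 6 CXCR2 ligands 5 were measured, and besides the 3 above *Cxcl1* reached the minimum in neutrophil-like cells only, at 47.2 CPM at 24 h and 73.7 CPM at 72 h. Among 8 other CXC chemokines, 4 reached the minimum in monocyte/Mφ-like cells at 24 h against naïve, with 1 higher, 2 lower and *Pf4* neither, against 6.40% of all genes higher and 5.26% lower. *Cxcl10*, an interferon-induced ligand of CXCR3, went from 66.9 to 199 CPM and to 14.2 CPM at 72 h. *Cxcl16*, a transmembrane chemokine that binds CXCR6, went from 471 to 89.3 and 254 CPM, and *Cxcl14* from 71.0 to 9.92 CPM at 24 h. *Cxcl10* was thus highest at 24 h, as *Ppbp* was, while *Cxcl16* was lowest at that time. Of 10 CXC and atypical receptors 8 were measured and none reached the minimum in monocyte/Mφ-like cells at 24 h against naïve. *Cxcr4*, the receptor of CXCL12, did at 72 h and was higher than at 24 h, at 56.7 against 21.5 CPM (2.21% of all genes were higher). In neutrophil-like cells *Cxcr4* was at 467 CPM at 24 h and 530.2 CPM at 72 h, and *Cxcr1*, a further receptor of ELR+ chemokines, at 30.7 and 22.7 CPM, and neither was called.

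Of 15 inducers and brakes of NF-κB-driven chemokine transcription, 12 reached the minimum in monocyte/Mφ-like cells at 24 h against naïve, with 2 higher, 1 lower (6.40% and 5.26% of all genes) and a median log2 ratio of -0.46. *Il1rn*, which encodes the IL-1 receptor antagonist, was at 14.2 CPM in the naïve and 147 CPM in the 24 h library, and *Myd88*, the adaptor of Toll-like and IL-1 receptors, at 38.5 and 89.5 CPM. *Nfkbiz*, which encodes the nuclear regulator IκBζ, was lower at 24 h (193 to 65.7 CPM). It was the only 1 of 13 called from 24 h to 72 h, when it was at 170.3 CPM. Of all genes, 2.21% were higher and 2.55% lower there. In neutrophil-like cells from 24 h to 72 h, 1 of 15 was called, against 11.2% of all genes higher and 5.48% lower. It was *Tlr4*, the endotoxin receptor, which went from 134 to 51.0 CPM. *Il1b*, the gene of the inducer IL-1β, stood at 11519 CPM at 24 h and 14152 CPM at 72 h in these cells.

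Of 12 other neutrophil attractants and their receptors, 9 reached the minimum in monocyte/Mφ-like cells at 24 h against naïve, with 3 higher (*S100a8*, *S100a9* and the leukotriene B4 receptor gene *Ltb4r1*) and 1 lower (*Ccl3*, at 594 CPM in the naïve library and with a ratio of 0.421 (0.372 to 0.477)), again against 6.40% and 5.26% of all genes. *S100a8* went from 20.3 to 667 CPM there, and from 4.21 to 164 CPM in T cell-like cells of the same libraries. From 24 h to 72 h none of 9 was called in monocyte/Mφ-like cells, against 2.21% of all genes higher and 2.55% lower. In neutrophil-like cells 3 of 11 were lower at 72 h, the chemokine genes *Ccl3* (3561 to 1645 CPM) and *Ccl4* (4910.2 to 2016 CPM) and *Ltb4r1* (229 to 102 CPM), against 5.48% of all genes, with a list median log2 ratio of -0.57 against 0.23 over all genes. Of the 11 measured genes that carry the CXCR2 signal (G proteins, arrestins, receptor kinases and *Rac2*), 9 reached the minimum in monocyte/Mφ-like cells at 24 h against naïve, 8 from 24 h to 72 h and 9 in neutrophil-like cells, and none was called in any of the 3 comparisons. Of all genes, 6.40%, 2.21% and 11.2% were higher and 5.26%, 2.55% and 5.48% lower in the same order. A list of this size is too short to be set apart from those shares. Of 5 proteoglycan core genes, which anchor chemokines through their sugar chains, *Srgn* was higher at 24 h in monocyte/Mφ-like cells (623 to 1318 CPM). This stands against 6.40% of all genes, and no other call was made.

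The genes whose levels followed each of the 5 most closely were found among 5292 genes by Pearson's r of log2(CPM + 10) over 15 points, the 5 classes in 3 libraries. These points share libraries and depth, and the values are a description. For *Cxcl2* they were *Card19* (0.972), *Clec4e* (0.971), *Msrb1* (0.967), *Cebpb* (0.955) and *Clec4d* (0.952), and for *Cxcl3* they were *Acod1* (0.982), *Fpr1* (0.981), *Lcn2* (0.970), *Slc40a1* (0.967) and *Asprv1* (0.966). For *Cxcr2* they were *Steap4* (0.991), *Gm20406* (0.989), *Asprv1* (0.989), *AC110211.1* (0.987) and *Stfa2l1* (0.984), of which *Asprv1* was shared with *Cxcl3*. For *Ppbp* they were *Vcan* (0.93), *Ap2s1* (0.840), *Ccl24* (0.820), *Prdx1* (0.814) and *Ifi211* (0.810), and for *Pf4* they were *Lgmn* (0.983), *Ccl12* (0.942), *Trem2* (0.941), *Ccl7* (0.938) and *Folr2* (0.936). No gene was shared between *Ppbp* and *Pf4*. As background, *Clec4e* and *Clec4d* encode C-type lectin receptors of myeloid cells, *Acod1* the enzyme that makes itaconate, *Fpr1* the formyl peptide receptor and *Lcn2* an iron-sequestering lipocalin. *Vcan* encodes the proteoglycan versican, *Lgmn* a lysosomal protease, *Trem2* and *Folr2* macrophage surface receptors, and *Ccl7* and *Ccl12* attractants of monocytes.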

How the data were processed

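Per the labels, the authors prepared the 3 libraries with 10x Genomics 3′ chemistry, aligned reads to the mouse build GRCm38/mm10 and made UMI tables in Cell Ranger 3.0.2, and per the methods they dropped cells under 200 genes or over 10% mitochondrial UMIs. The deposited values are these raw UMI counts per gene and cell, and total UMIs were 1865221, 10542346 and 5246731 in the naïve, 24 h and 72 h libraries. All 4102 cells were kept.

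Cells were clustered together with Seurat 5.3.0 in R 4.3.3 (2000 variable genes, 30 principal components, 20 for monocyte/Mφ-like cells, 20 neighbours, Louvain resolution 0.8, random seed 0). A cluster took a name if 3 or more of the name's markers each reached 10% of its cells and a level 2-fold above other cells, with 10 CPM added. Doublet scores came from Scrublet in scanpy 1.11.5, and the sums used numpy 2.4.6, scipy 1.17.1 and pandas 2.3.3, with figures from matplotlib 3.10.9.

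Levels carry exact Poisson intervals, shares exact Clopper-Pearson intervals and ratios exact conditional Poisson intervals. A level of 0 is given with the value of 3 counts, and groups under 20 cells in a library were not compared. The ratio intervals were tested on simulated data with independent Poisson counts per gene, as the intervals assume. That test holds no spread between cells or mice, so it cannot show how the intervals do where such spread is present. The genes named are the 5 members in every class and subcluster, list genes with a mean of at least 25 CPM in the class compared and, for likeness, the 5 genes with the highest Pearson's r among genes with at least 50 CPM in a group. The platelet, neutrophil and eosinophil markers, *Apoe* and *S100a9* are named beside the results they touch, chosen after values were seen. Members and lists were chosen with earlier results of these data known. CCR2-deficient libraries and other assays of the study were not analysed here.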

Additional observations from a re-analysis of the deposited data

Results flagged for a closer look

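Groups of cells moved in opposite directions between the same libraries for 5 pairs of ratios. With 1 library per time point, none of these differences was tested. *Cxcl2* at 72 h against naïve had a ratio of 1.63 (1.39 to 1.92) in monocyte/Mφ-like cells and 0.866 (0.784 to 0.959) in neutrophil-like cells. The former was 3.26 without the 5 cells of each library that held most *Cxcl2*, which left 69 of 167 naïve UMIs, and 1.12 with the T and B cell-like level taken off. *Cxcl3* over the same libraries was higher in monocyte/Mφ-like cells, at 2.66 times the value that 3 naïve counts would give. With the 0 UMIs found in naïve cells, the interval of the ratio began at 2.08. That direction rests on 5 cells, since 7 of the 50 UMIs at 72 h were left without the 5 cells that held most. The value against 3 naïve counts was then 0.363, which gives no direction. The ratio was 0.449 (0.235 to 0.945) in neutrophil-like cells, where the naïve UMIs came from 1 cell.

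Between 24 h and 72 h, *Cxcl2* had a ratio of 1.39 (1.21 to 1.59) in *Ptgs2*-led and 0.877 (0.821 to 0.935) in *Retnlg*-led neutrophil-like cells. *Cxcr2* went the other way in the same clusters, at 1.40 (1.09 to 1.79) in *Retnlg*-led and 0.306 (0.170 to 0.579) in *Ptgs2*-led cells. The bounds of these clusters moved with the processing, and their ratios were not computed under the alternatives. Among monocyte/Mφ-like subclusters, *Cxcl2* had a ratio of 1.80 (1.18 to 2.66) in *Gm42418*-led cells, of which 20 were found at 72 h, and 0.160 (0.0822 to 0.280) in *Ly6c*+ monocyte-like cells, of which 29 were found.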

How the results depend on the processing

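Of 124 values of 13 results under an alternative, 99 stayed within the limit set for a change, 21 moved beyond it and 4 turned direction. For a ratio the limit was its own interval of the counting error, which is wide where UMIs are few. The *Ppbp* ratio of 24 h to naïve in monocyte/Mφ-like cells stayed within 4.63 to 1027, although thinning took it from 25.9 to 6.15. The same step took the *Pf4* ratio from 1.31 to 1.19, beyond its limits of 1.21 to 1.43. The count of 99 is therefore no measure of how stable the results are. The subtraction of the T and B cell-like level, the choices of clusters and the ratios of 72 h to naïve were added after the data were seen. Thinning cells to 1000 UMIs turned the *Cxcl2* ratio of 72 h to 24 h in monocyte/Mφ-like cells to 1.01 and the *Cxcr2* ratio in neutrophil-like cells to 1.03. At 24 h against naïve, thinning gave 2.05 for *Cxcl3*, with 3 counts set for the naïve cells, and 1.19 for *Pf4*. The *Cxcr2* ratio was 1.36 without the *Ptgs2*-led cluster and 1.40 in *Retnlg*-led cells alone. Without the 5 cells holding most of a gene, ratios of 24 h to naïve were 4.01 for *Cxcl2* and 1.5 for *Pf4*, and ratios of 72 h to 24 h were 0.813 for *Cxcl2*, 0.0846 for *Cxcl3* and 0.0641 for *Ppbp*. With the T and B cell-like level taken off, *Cxcl2* gave 1.14 and 0.979. The mean over cells gave 0.995 for *Cxcl2* at 72 h against 24 h and 1.16 for *Pf4* at 24 h against naïve. Dropping cells under 500 genes or over 5% mitochondrial UMIs gave 0.226 for *Cxcl3* and 0.0750 for *Ppbp* at 72 h against 24 h. Of all genes, 492 passed 2-fold in monocyte/Mφ-like cells at 24 h against naïve, 882 after thinning, 798 with no minimum and 204 with 50 CPM added. In monocyte/Mφ-like cells *Cxcl2* at 72 h against naïve gave 1.98 thinned, 2.06 as the mean over cells, 3.26 without the 5 cells and 1.12 with the T and B cell-like level taken off. *Cxcl3* there, against 3 naïve counts, gave 0.363 without the 5 cells. The causes were not tested. Leaving out the 54 cells ranked highest by doublet score, or the *Cd79a*-led and *Gm42418*-led subclusters, moved no value beyond its limit. Depth limited the naïve library most, with 27 neutrophil-like cells and single UMIs or none of *Ppbp*, *Cxcl3* and *Cxcr2* in monocyte/Mφ-like cells. A mean over cells and the subtraction gave no value for *Cxcl3* against naïve, which was at 0. No paired analysis was possible because each time point is 1 library.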
